A study of Mus musculus with 27 samples.

Results

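The angiopoietin and Tie receptor axis was read in whole retinas of the oxygen-induced retinopathy (OIR) mouse model. Its 5 genes are Angpt1 and Angpt2, which encode the secreted ligands angiopoietin 1 and 2, Tek and Tie1, which encode the receptors Tie2 and Tie1, and Ptprb, which encodes the phosphatase VE-PTP. All 5 were found by their symbols among the 40129 genes of the table, and all 5 were among the 27137 genes tested. In the model, newborn pups breathe a hyperoxic atmosphere, which empties the central retina of capillaries, and then return to room air. All mice were wild-type (WT) pups of either sex, of strain C57BL/6 in the labels and C57BL/6J in the methods of the study. The nOIR p14 and nOIR p17 groups stayed in room air until postnatal day 14 or 17, and the OIR p14 and OIR p17 groups went through the oxygen phase and were sampled at the same ages. The earlier age stands for ischemia with little neovascularization and the later one for its peak. Each library came from 1 mouse, from a single retina or from both retinas pooled, and the labels tell neither this nor the litter. By the methods of the study each group held fewer litters than mice, so mice that share a litter were tested as independent and the p-values measure only the spread between these mice.

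Angiopoietin 1, made mostly by pericytes and other cells around the vessel, activates Tie2 on endothelial cells and keeps vessels quiescent. Angiopoietin 2 is released by endothelial cells themselves, binds the same receptor but activates it weakly and, in many settings, opposes angiopoietin 1, which loosens the contact of endothelial cells with pericytes and lets vessels sprout. Tie1 binds no angiopoietin on its own and modulates Tie2 signaling from the same membrane, while VE-PTP removes phosphate from Tie2.

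The comparisons used 26 of the 27 mice, with 6 mice in each group except OIR p17, which had 8. The study left out nOIR p14 mouse S4 for lens contamination, and so did the tests here. The deposited values are normalized reads, that is, reads per gene divided by 1 size factor per mouse. Between 17029536 and 33593428 reads per mouse were recovered from them. Limma was fitted to log2(normalized reads + 1) of all 4 groups, with Benjamini-Hochberg adjustment over every gene tested. Retinal identity was checked on rod genes: the summed level of 6 rod markers lay between 854714 and 1576410 normalized reads in the 26 mice. Lens transcripts varied widely within every group, with summed levels of 6 lens markers from 10.7 to 19075 normalized reads in nOIR p14 and from 269.1 to 33286 in OIR p17 mice. With the log2 level of the lens gene Cryaa as a covariate, the members that passed the test in each comparison passed again, and Tie1 at p14 passed in addition.

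Angpt2 rose in OIR mice at both ages, Tie1 rose at p17, Ptprb fell at p14, and neither Angpt1 nor Tek passed the test at either age. At p14, 1 of the 5 members was called higher and 1 lower, where 3.18% and 2.91% of all genes tested were. At p17, 2 of 5 were called higher and none lower, where 7.39% and 5.12% of all genes tested were, and none of the other 3 had an unadjusted p under 0.05. The median log2 fold change of the 5 members was -0.46 at p14 and 0.29 at p17, beside 0.02 and -0.02 over all genes tested. In whole retina, a change in the number of cells that express a gene and a change in its RNA per cell cannot be told apart.

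**Figure D1:**
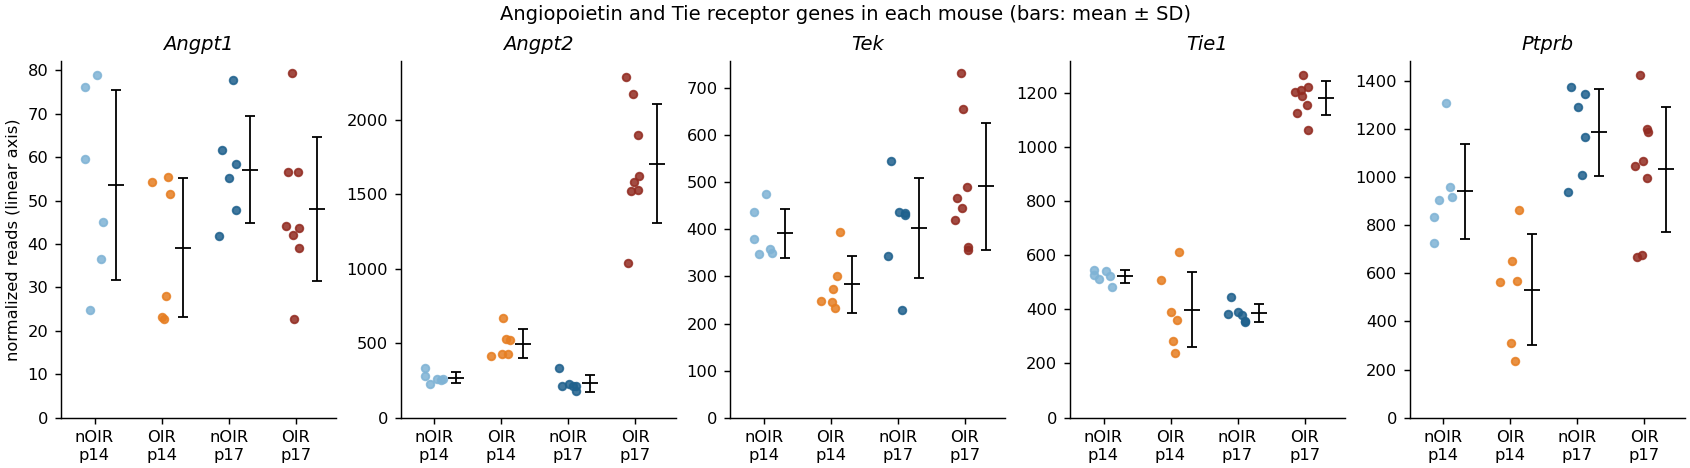
Normalized reads of the 5 genes in each of 26 mice (linear axes starting at 0, 1 point per mouse), with the mean and SD of each group beside the points. The 8 OIR p17 mice lie above every other mouse for Angpt2, from 1039 to 2289, and for Tie1, from 1064 to 1266, whereas all 4 groups overlap for Angpt1.

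Among the ligands, Angpt2 showed the largest changes of the 5 genes in OIR against nOIR mice at p17. In nOIR p14 mice its lowest, median and highest values were 224.9, 259.0 and 331.8 normalized reads, and in OIR p14 mice 411.0, 472.0 and 665.8. In nOIR p17 mice they were 178.1, 212.4 and 334.4, and in OIR p17 mice 1039, 1602 and 2289. Every OIR mouse thus lay above every nOIR mouse of its age, and every OIR p17 mouse above every OIR p14 mouse, the last of which was found in 1.41% of all genes tested. A gap between OIR and nOIR mice with OIR higher was seen in 1.91% of all genes tested at p14 and in 3.9% at p17.

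The fold change of Angpt2 was 1.84 at p14 (95% confidence interval 1.46 to 2.31, limma adjusted p = 0.00072). The fold change reached 7.39 at p17 (5.95 to 9.17, adjusted p = 3.81e-14), and by its p-value Angpt2 ranked 8 of the 27137 genes tested, after rank 354 at p14. The OIR effect at p17 exceeded that at p14 by 4.02 times (2.93 to 5.52, adjusted p = 1.69e-06). A more positive OIR effect at p17 than at p14 was called for 1.43% of all genes tested. In OIR mice alone, Angpt2 rose 3.40-fold between the ages (adjusted p = 6.02e-09), whereas in nOIR mice the log2 difference was -0.24 and did not pass (adjusted p = 0.85).

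Angpt1, the agonist, was low in every group. It had 24.7, 52.3 and 79.0 normalized reads (lowest, median, highest) in nOIR p14 mice and 22.8, 39.7 and 55.5 in OIR p14 mice. At p17 the corresponding values were 41.9, 56.8 and 77.8 in nOIR and 22.7, 44.0 and 79.3 in OIR mice. The groups overlapped at both ages. Its log2 fold change was -0.44 at p14 (95% confidence interval -1.07 to 0.20, adjusted p = 0.538) and -0.29 at p17 (-0.88 to 0.30, adjusted p = 0.617 from limma). As folds, these intervals run from 0.48 to 1.15 at p14 and from 0.54 to 1.23 at p17, so the spread between mice leaves both a fall and a modest rise possible.

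Within a mouse, the ratio of the ligands was higher in OIR mice at both ages, and of both ligands Angpt2 alone passed the test by itself. The ratio of Angpt2 to Angpt1 reads was 5.70 ± 2.15 in nOIR p14 (SD, n = 6), 15.3 ± 8.5 in OIR p14 (SD, n = 6), and 4.28 ± 1.92 in nOIR p17 (SD, n = 6), and it reached 40.3 ± 17.9 among the OIR p17 mice (SD, n = 8). All 8 OIR p17 mice, from 18.4 to 69.8, lay above all 6 nOIR p17 mice, which reached 7.97 at most. At p14 the groups overlapped, with OIR mice from 7.56 and nOIR mice up to 9.11. On the log2 scale with a pseudocount of 1, the ratio was higher in OIR mice by 1.31 at p14 (p = 0.00866 by a two-sided exact permutation test) and by 3.18 at p17 (p = 0.000333, which is the lowest value that 8 mice against 6 allow). These are 2 of 16 exact tests on values within a mouse, whose p-values are not adjusted. The ratio is one of reads, and the transcripts differ in length. Per kilobase of annotated exon, Angpt1 stood at 10.3 ± 4.2 and Angpt2 at 72.4 ± 9.8 normalized reads in nOIR p14 mice (SD, n = 6), and at 9.23 ± 3.18 and 462.6 ± 108.8 in OIR p17 mice (SD, n = 8).

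**Figure D2:**
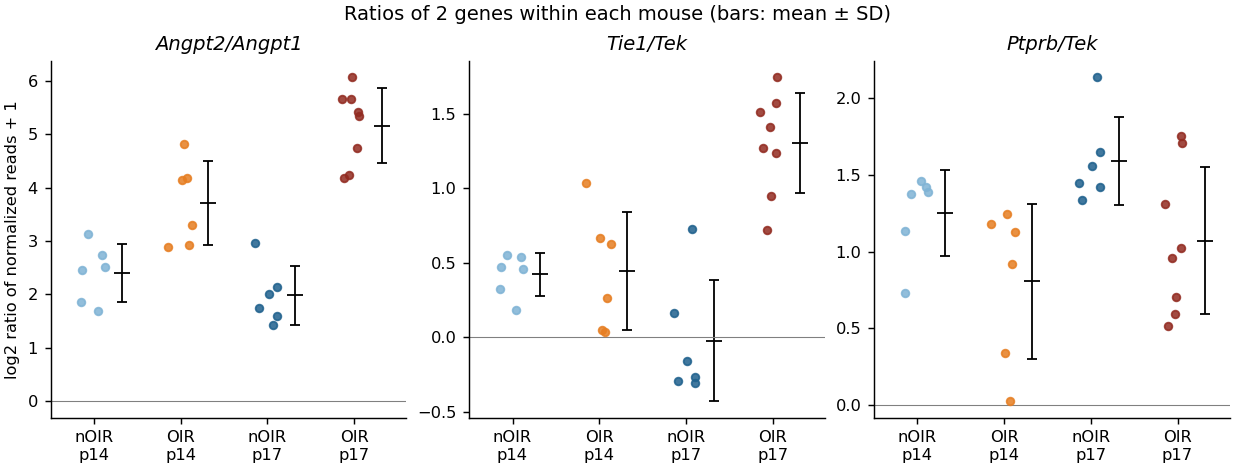
Log2 ratio of normalized reads (plus 1) of 2 genes within each of 26 mice, with the mean and SD of each group. Angpt2 over Angpt1 is between 4.18 and 6.06 in OIR p17 mice and at most 2.97 in nOIR p17 mice, and Tie1 over Tek has its highest group mean in OIR p17 mice.

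Both receptors lie on chromosome 4 and are made almost only by endothelial cells and some blood cells, yet their transcripts parted at p17. Their proximal promoters are shown because they are the stretches from which these receptor transcripts start. RefSeq sequences were at hand for 2 of the 5 members, and the 250 bases before the start are printed 5′ to 3′ on the strand of the gene. The Tek stretch is chr4:94739039-94739288 on the plus strand and the Tie1 stretch chr4:118489850-118490099 on the minus strand, both in build GRCm38.p6. Capitals mark CTTCCT, which is the letters AGGAAG, a longer form of the letters that ETS factors bind, read on the opposite strand.
Tek: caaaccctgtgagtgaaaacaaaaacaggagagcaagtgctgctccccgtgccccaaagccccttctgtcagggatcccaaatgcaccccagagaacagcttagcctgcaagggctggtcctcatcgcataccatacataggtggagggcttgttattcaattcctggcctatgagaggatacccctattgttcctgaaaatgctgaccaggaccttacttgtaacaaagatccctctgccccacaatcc
Tie1: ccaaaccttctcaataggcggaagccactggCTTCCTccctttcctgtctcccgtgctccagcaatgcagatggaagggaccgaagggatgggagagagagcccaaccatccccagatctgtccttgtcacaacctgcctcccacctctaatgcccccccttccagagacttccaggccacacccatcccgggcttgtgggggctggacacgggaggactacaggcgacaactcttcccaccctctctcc
The GC content was 51.2% for Tek and 60.4% for Tie1.

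Letters of 5 motifs were searched on both strands of the 300-base windows that run 50 bases past the start. AGGAAG was found in the Tie1 window at 219 bases before the start and again at 33 bases after it, and not in that of Tek, while 35.4% of 32851 such windows hold it. Only these full letters were searched. Their inner letters GGAA, or TTCC on the opposite strand, occur unmarked in both printed stretches, so the Tek stretch does not lack them. The letters AGATAA, which factors of the GATA family bind, occurred in the Tek window at 36 bases after the start, and in 11.2% of all windows. Neither window held ACGTG, a core of hypoxia response elements that 19.6% of all windows hold. Its variant GCGTG was in neither and in 32.4% of all windows. The forkhead core GTAAACA was likewise in neither and in 3.65% of all windows. No match overlapped another, and these matches describe letters and not bound sites.

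Tie1 passed the test at p17 and not at p14. In nOIR p14 mice it had 482.5, 524.6 and 546.5 normalized reads (lowest, median, highest), a spread of 4.44% of the mean. OIR p14 mice ranged from 238.3 to 611.1 with a median of 376.2, so that 4 of 6 lay below all nOIR p14 mice and 1 lay above them all. At p17, nOIR mice had 351.6, 382.3 and 444.4 and OIR mice 1064, 1196 and 1266 normalized reads, with no overlap. The fold change was 3.07 at p17 (95% confidence interval 2.53 to 3.71, adjusted p = 3.90e-10) and 0.73 at p14 (0.59 to 0.89, adjusted p = 0.0565 from limma).

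The call at p14 turned on the setting: the adjusted p of Tie1 ranged from 0.0189 to 0.193 over 11 alternatives and was 0.0038 without OIR p14 mouse S4 and 0.0214 without OIR p14 mouse S6. The difference between the ages passed under all 10 alternatives run for it and with each mouse left out, with an effect 4.21 times higher at p17 than at p14 (3.18 to 5.57, adjusted p = 1.19e-07), rank 6 of 27137 genes tested. In OIR mice, Tie1 rose 3.10-fold from p14 to p17 (adjusted p = 3.21e-09). In nOIR mice all 6 mice at p17 lay below all 6 at p14, a pattern found in 0.674% of all genes tested, with a log2 difference of -0.44 (adjusted p = 0.286), and it passed only when these 2 groups were fitted alone (adjusted p = 0.0295).

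Tek did not follow. It had 348.3, 369.3 and 475.9 normalized reads (lowest, median, highest) in nOIR p14 and 233.0, 261.1 and 395.6 in OIR p14 mice. At p17 it had 229.5, 432.5 and 544.8 in nOIR and 356.7, 456.4 and 732.7 in OIR mice. Of the OIR p14 mice, 5 of 6 lay below all nOIR p14 mice, and of the OIR p17 mice, 2 of 8 lay above all nOIR p17 mice. On the log2 scale Tek differed by -0.48 at p14 (95% confidence interval -0.86 to -0.10, adjusted p = 0.141) and by 0.29 at p17 (-0.06 to 0.64, adjusted p = 0.336 from limma). With 1 mouse left out, the difference at p17 ranged from 0.14 to 0.39. The interval at p17 leaves out a rise as large as that of Tie1. Between the ages, Tek rose in OIR mice by 0.77 on the log2 scale (adjusted p = 0.00462), and the difference between the OIR effects, also 0.77, did not pass (adjusted p = 0.157).

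Within each mouse, the log2 ratio of Tie1 to Tek was 0.42 ± 0.14 in nOIR p14 (SD, n = 6), 0.44 ± 0.40 in OIR p14 (SD, n = 6), and -0.02 ± 0.41 in nOIR p17 (SD, n = 6), and it reached 1.30 ± 0.34 among the OIR p17 mice (SD, n = 8). OIR and nOIR mice differed by 1.33 at p17 (p = 0.000666, two-sided exact permutation test). At p14 the difference was 0.02 (exact permutation test, two-sided, p = 0.903). Only nOIR p17 mouse S3, at 0.73, reached into the range of the OIR p17 mice, which began at 0.72.

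Ptprb, the phosphatase that acts on Tie2, was lower in OIR p14 mice. Its lowest, median and highest values were 725.2, 911.9 and 1309 normalized reads in nOIR p14 mice and 237.3, 566.9 and 863.9 in OIR p14 mice. In nOIR p17 mice they were 938.6, 1229 and 1375, and in OIR p17 mice 666.9, 1057 and 1425. At p14, 5 of 6 OIR mice lay below all nOIR mice, and at p17 the groups overlapped. The fold change was 0.53 at p14 (95% confidence interval 0.38 to 0.73, adjusted p = 0.011) and 0.85 at p17 (0.63 to 1.15, adjusted p = 0.592 from limma). Ptprb rose 2.05-fold in OIR mice from p14 to p17 (adjusted p = 0.00216), but the OIR effects at both ages did not differ by the test (log2 difference 0.70, adjusted p = 0.408). The log2 ratio of Ptprb to Tek was lower in OIR mice by 0.44 at p14 (exact permutation test, two-sided, p = 0.0909) and by 0.52 at p17 (p = 0.0403). The latter was borderline: with 1 mouse left out, the call was kept in 6 and lost in 8 of 14 tests, with p up to 0.0894.

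**Figure D3:**
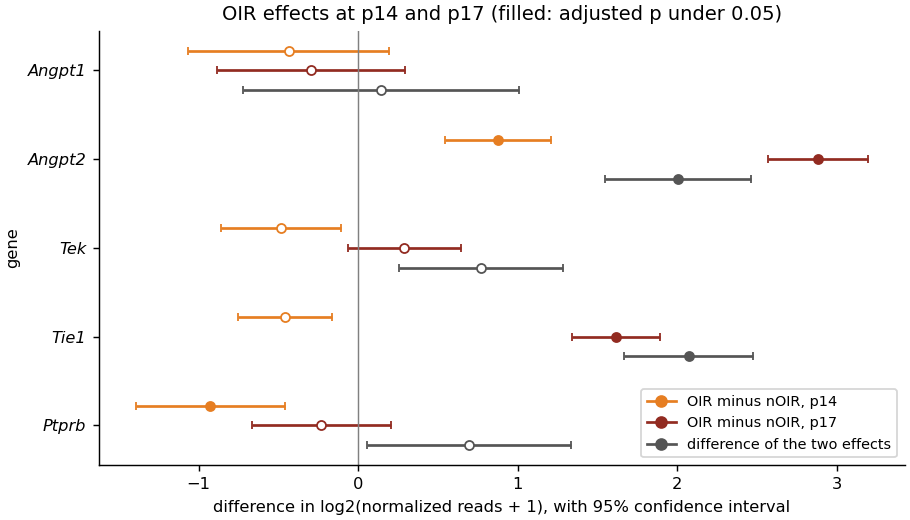
Difference between OIR and nOIR mice in log2(normalized reads + 1) at p14 and at p17, and the difference of both effects, with 95% confidence intervals from limma. Filled points passed the test across the whole table at 0.05: Angpt2 in all 3 comparisons, Tie1 at p17 and in the difference, and Ptprb at p14.

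Among the OIR p14 mice, the receptors and the phosphatase had the same lowest and highest mouse, while the mice between them were ordered differently. Mouse S2 was the lowest of the 6 for Tek (233.0), Tie1 (238.3) and Ptprb (237.3 normalized reads), and mouse S4 was the highest for all 3 (395.6, 611.1 and 863.9). Mouse S6 was second highest for Tie1 (508.2) but among the lower mice for Tek (247.9). For Angpt2 the highest OIR p14 mouse was S1, at 665.8, and the lowest S6, at 411.0. From p14 to p17, 4 of the 5 members rose in OIR mice, where 4.11% of all genes tested did. None of the 5 passed in nOIR mice, where 0.317% of all genes tested passed in either direction, and Tie1 alone had an unadjusted p under 0.05.

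The levels of the 5 genes were ordered per kilobase of exon, since longer transcripts give more reads. In nOIR p14 mice, Tie1 led with 106.1 ± 4.7 normalized reads per kilobase, followed by Tek with 83.1 ± 11.2, Angpt2 with 72.4 ± 9.8, Ptprb with 70.7 ± 14.8 and Angpt1 with 10.3 ± 4.2 (SD, n = 6 each). Each neighbour in this order overlapped the next in range, except Ptprb and Angpt1. In OIR p17 mice the order was Angpt2 with 462.6 ± 108.8, Tie1 with 239.8 ± 12.8, Tek with 104.3 ± 28.6, Ptprb with 77.5 ± 19.4 and Angpt1 with 9.23 ± 3.18 (SD, n = 8 each). Here every value of Angpt2, from 281.6, lay above every value of Tie1, up to 257.4, every value of Tie1 lay above every value of Tek, and the ranges of Tek and Ptprb overlapped. In OIR p14 mice the order by mean was Angpt2 (134.2 ± 26.4), Tie1 (81.1 ± 28.4), Tek (60.1 ± 12.8), Ptprb (40.0 ± 17.2) and Angpt1 (7.53 ± 3.10), and in nOIR p17 mice Ptprb (89.1 ± 13.6), Tek (85.6 ± 22.6), Tie1 (78.2 ± 6.8), Angpt2 (62.0 ± 14.7) and Angpt1 (11.0 ± 2.4), as normalized reads per kilobase (SD, n = 6 each). In both of these groups only Angpt1 lay apart from its neighbour in range. Exon lengths come from the GENCODE M21 gene models and the reads were counted on a later release, so these levels are approximate. In that annotation Angpt2 lies on the opposite strand within Mcph1 with 0 shared exon bases, and the normalized reads of Mcph1 were 306.2 ± 64.2 in nOIR p17 (SD, n = 6), beside 316.9 ± 70.6 in OIR p17 mice (SD, n = 8). Angpt1 shares 737 exon bases with the opposite gene Gm17473, which had at most 19.1 normalized reads in any mouse, and reads of both cannot be told apart there.

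All members but Angpt1 were treated as mainly endothelial transcripts, and each was set beside 18 other endothelial genes. Whole retina does not show which cells made the transcripts of a member, so these are not levels per endothelial cell. At p14, 3 of the 18 were called higher and 1 lower in OIR mice, with a median log2 fold change of 0.01, and at p17 16 of 18 were called higher and none lower, with a median of 1.48. Their summed level lay between 11679 and 14985 normalized reads in nOIR p14, 10648 and 16432 in OIR p14, 10281 and 11946 in nOIR p17 and 15838 and 21290 in OIR p17 mice. Kdr held the largest part of this sum, and without it the sum lay between 5728 and 6823 normalized reads in nOIR p17 and between 11894 and 16134 in OIR p17 mice. The normalized reads of Ecscr rose at p17 from 91.6 ± 19.2 in nOIR (SD, n = 6) to 475.7 ± 105.7 in OIR mice (SD, n = 8; log2 fold change 2.36, adjusted p = 5.22e-11), Eng by 1.95, Pecam1, an adhesion molecule of endothelial junctions, by 1.27 and Emcn by 1.95 on the log2 scale. At p14 Cldn5, the main claudin of the blood-retina barrier, fell by 0.83 on the log2 scale (adjusted p = 0.00035), while Ecscr, Flt1 and Pecam1 rose by 0.87, 0.39 and 0.40. The smallest log2 fold change at p17 was that of Kdr, 0.20.

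Against these 18 genes, Angpt2 had a larger log2 fold change than all 18 at both ages. At p14 it barely differed from Ecscr, with 0.877 beside 0.871. Tie1 exceeded 2 of them at p14 and 11 at p17. Tek exceeded 2 of 18 at p14 and 2 at p17. Ptprb was below all 18 at both ages, though at p14 its -0.93 lay close to the -0.83 of Cldn5. Angpt1 was below 16 at p14 and all 18 at p17. For a value per mouse, the mean log2 level of the 18 genes was subtracted from that of each member. Angpt2 then remained higher in OIR mice, by 0.88 at p14 (exact permutation test, p = 0.00216, which is the lowest value that 6 against 6 allow) and by 1.49 at p17 (p = 0.000333), with no overlap of the groups at either age.

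Relative to the endothelial genes, Tie1 was lower in OIR mice by 0.46 at p14 (exact permutation test, two-sided, p = 0.00649) and higher by 0.22 at p17 (p = 0.0216, or 0.0606 without nOIR p17 mouse S5). Tek was lower by 0.48 at p14 (exact permutation test, p = 0.00216) and by 1.10 at p17 (p = 0.00167), where it stood at 0.71 ± 0.46 in nOIR (SD, n = 6) and at -0.40 ± 0.42 in OIR mice (SD, n = 8). Ptprb was lower by 0.92 at p14 (exact permutation test, p = 0.00216) and by 1.62 at p17 (p = 0.000333), with every OIR mouse below every nOIR mouse of its age. Angpt1 differed by -0.43 at p14, which did not pass (exact permutation test, p = 0.193), and by -1.69 at p17 (p = 0.000333). At p17 the mean log2 level of the 18 genes was 7.90 in nOIR and 9.30 in OIR mice, while the log2 fold changes of Tek, Ptprb and Angpt1 themselves were 0.29, -0.23 and -0.29 and did not pass. The relative values of these 3 genes at p17 are thus mostly those of the 18 genes, and Angpt1 is not an endothelial transcript. These p-values are unadjusted and belong to the 16 exact tests on values within a mouse. With Pecam1 and Cdh5 in place of the 18 genes, all 10 values kept their sign and their side of 0.05.

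**Figure D4:**
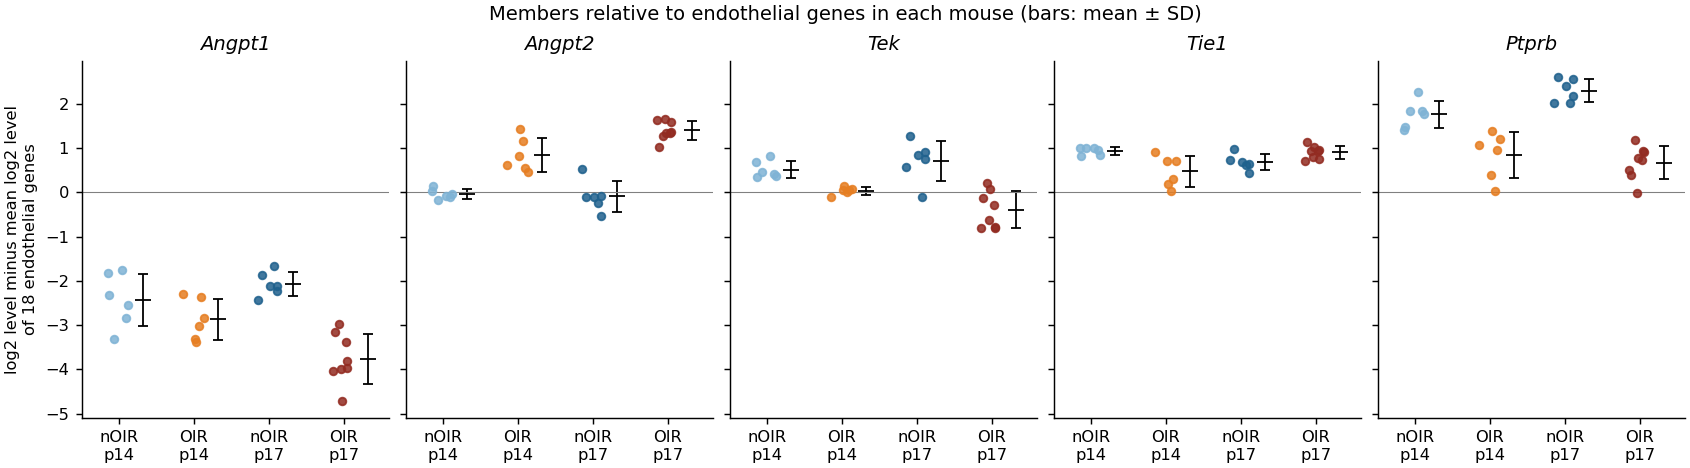
Log2 level of each member minus the mean log2 level of 18 endothelial genes in each of 26 mice, with the mean and SD of each group on a shared axis. Angpt2 lies above 0 in all OIR mice, while Ptprb and Angpt1 have their lowest group means in OIR p17 mice.

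Pericyte and other marker lists moved along with these results, and their part in them was not tested. Of 10 pericyte markers, 6 were called lower and none higher in OIR p14 mice, and 7 were called higher and 1 lower in OIR p17 mice. Kcnj8, a potassium channel gene of pericytes, fell from 282.3 ± 38.1 to 90.1 ± 34.7 normalized reads at p14 (SD, n = 6 each, adjusted p = 4.37e-07), and Abcc9, which encodes its partner subunit, by 1.47 on the log2 scale. Rgs5 fell by 1.10 at p14 and rose by 1.84 at p17 on the log2 scale, and Atp13a5 fell at both ages, by 2.88 and 2.72. At p17 Cspg4 and Higd1b rose by 2.29 and 2.27 on the log2 scale, and Pdgfrb, the receptor that recruits pericytes, by 1.32. The summed pericyte level was 21202 to 26997 in nOIR p14, 14180 to 20048 in OIR p14, 22957 to 33083 in nOIR p17 and 29787 to 42626 normalized reads in OIR p17 mice. Most of it was Vtn, which fell at p14 and did not pass at p17 (log2 fold change -0.14, adjusted p = 0.50). Without Vtn, which was set aside after its values were seen, the sum was 3648 to 4272 in nOIR p14, 1560 to 3294 in OIR p14, 3112 to 3813 in nOIR p17 and 9088 to 12890 normalized reads in OIR p17 mice, so that OIR mice lay below all nOIR mice at p14 and above them all at p17. Much of this smaller sum was Rgs5, with a mean of 2180 normalized reads in nOIR p14 mice, beside 3964 for the sum. In OIR p17 mice the means were 6576 for Rgs5 and 11056 for the sum. No pericyte marker was listed at 0 in a whole group. Of 6 markers of microglia and macrophages, some of which express Tie2, 1 was called higher at p14 and 5 at p17, and their summed level was 926.8 to 1106 in nOIR p17 and 1853 to 3006 normalized reads in OIR p17 mice. Smooth muscle markers were called higher in 2 of 6 cases at p14 and in 5 of 6 at p17, with summed levels of 4167 to 5890 in nOIR p17 and 6052 to 9647 normalized reads in OIR p17 mice. Astrocyte markers were called higher in 3 of 5 cases at p14 and in 4 of 5 at p17 (1469 to 2120 and 3662 to 10886 normalized reads at p17), and genes of dividing cells in 5 of 6 and in 6 of 6 (151.4 to 233.8 and 792.0 to 1387 normalized reads at p17). Rod markers were called lower in 2 of 6 cases at p14 and in 3 of 6 at p17. Platelets also store angiopoietin 1. Of the platelet markers, Pf4 was called higher at p17 (adjusted p = 1.42e-06), with at most 5.76 normalized reads in nOIR p17 and 32.9 to 92.3 in OIR p17 mice, Gp9 and Itga2b did not pass and Ppbp was too low to be tested. The hemoglobin genes Hbb-bs and Hba-a1 were called higher too, by 3.39 and 3.09 on the log2 scale.

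Genes listed for endothelial tip cells and sprouts, among which Angpt2 is often counted, were called higher in 12 of 14 cases at p14 and in all 14 at p17, with a median of 1.56 at the earlier and 2.73 at the later age on the log2 scale. The list was chosen with earlier results of these data known. It holds Apln, Mcam and Angptl2, which the study names as upregulated in these mice, so the number of calls is no independent result. The smallest adjusted p at p17 were those of Mcam, Adm, Apln and Esm1. Adm, the gene of adrenomedullin, rose by 5.52, Apln, the gene of apelin, by 4.43 and Esm1, a tip cell proteoglycan, by 7.85 on the log2 scale, and the smallest rise of the 14 was that of Unc5b, 1.66. At p14 the range ran from 0.19 for Cxcr4 to 4.94 for Esm1. The 2.88 of Angpt2 at p17 lay just above the median of these 14 genes, and its 0.88 at p14 below it.

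**Figure D5:**
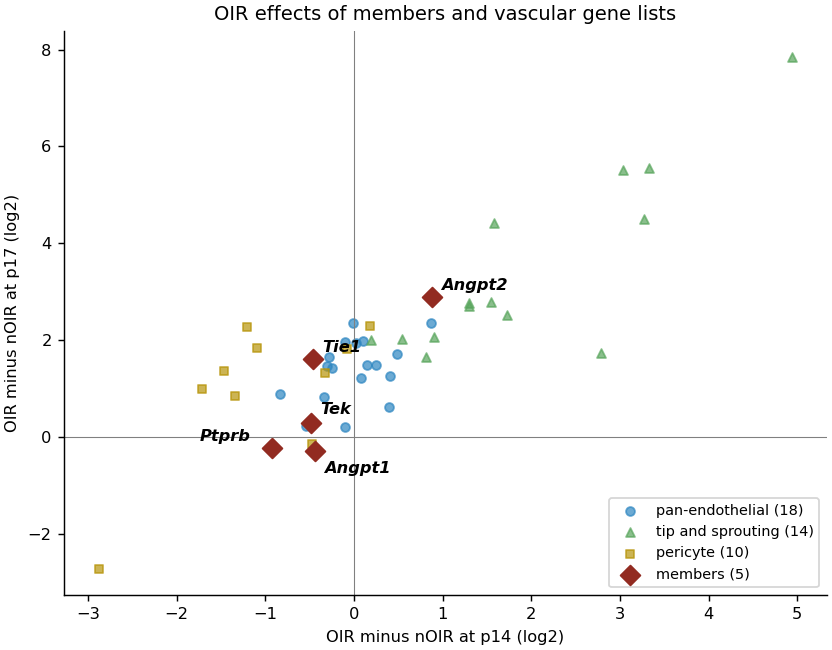
OIR minus nOIR on the log2 scale at p14 (x axis) against p17 (y axis) for the 5 members, 18 pan-endothelial, 14 tip and sprouting and 10 pericyte genes, 1 point per gene. Angpt2 lies among the tip and sprouting genes, Tie1 among the endothelial genes, and Tek, Ptprb and Angpt1 near or below 0 at p17.

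Of 25 proteins that bind the members or act next to or below Tie2, 4 were called higher at p14 and 7 at p17, and none lower. The median of the 25 was 0.05 at the earlier and -0.03 at the later age on the log2 scale. Rac1 did not pass at p17 (log2 fold change -0.74, limma adjusted p = 0.201). It was spread from 636.5 to 6078 normalized reads in OIR p17 mice, beside 4739 to 5118 in nOIR p17 mice. Akt1 and Pik3ca were also spread widely in OIR p17 mice, from 796.6 to 5446.5 and from 1065 to 4968. Itga5 and Itgb1, whose integrin binds angiopoietins, were called at both ages: Itga5 rose by 0.64 and 1.85 on the log2 scale, and Itgb1 by 0.39 and 1.11. In normalized reads, Itga5 stood at 182.2 ± 40.8 in nOIR p17 (SD, n = 6) and at 654.7 ± 105.6 in OIR p17 (SD, n = 8; limma adjusted p = 3.22e-09). Tnip2, which encodes the Tie2-binding protein ABIN-2, rose by 0.83 at p14 (adjusted p = 0.00062) and by 0.78 at p17, and Iqgap1 by 0.46 and 0.74. At p17 Mmp14, a membrane metalloproteinase, rose by 1.04 and Cdh5, which encodes VE-cadherin and is also on the endothelial list, by 1.43. Adam17, a sheddase, rose by 0.33 at p17 (adjusted p = 0.0314).

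Angpt4, which encodes the third angiopoietin, and Svep1, a Tie1 ligand, marked the ends of this list at p14 without passing, with log2 fold changes of -0.74 (adjusted p = 0.611) and 1.38 (adjusted p = 0.315). Foxo1, which encodes the transcription factor that Tie2 signaling holds inactive, did not pass at either age. Its log2 fold change was 0.11 at p14 (limma adjusted p = 0.922) and -0.50 at p17 (0.296). At p17 its median was higher in OIR mice (1007 normalized reads, range 246.0 to 1155) than in nOIR mice (944.2, range 856.2 to 1046). The -0.50 thus rests on the low OIR p17 mice. Among 12 genes known as FOXO1 targets, Angpt2 left out, 1 was called higher at p14, and 1 higher and 2 lower at p17. These were Pik3ip1 at p14, with 0.45, and Klf6, Cited2 and Sesn3 at p17, with 0.43, -0.79 and -0.29 on the log2 scale. Cited2 was spread widely in OIR p17 mice, from 1221 to 5445 normalized reads, beside 4354 to 5935 in nOIR p17 mice. Cited2 ended the range of this list at p17, and the median of the 12 was 0.04 at p14 and 0.01 at p17.

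Transcription factors known to act on the Angpt2 or Tek promoters were called higher in 1 of 15 cases at p14 and in 7 of 15 at p17, where 1 was called lower. Elk3 was the one at p14, with a log2 fold change of 0.70 (adjusted p = 0.0074). At p17 the ETS factors Erg, Fli1, Ets1 and Elk3 rose by 2.35, 1.98, 1.94 and 1.54 on the log2 scale. The normalized reads of Ets1 were 403.4 ± 89.4 in nOIR (SD, n = 6) and 1549 ± 292 in OIR mice (SD, n = 8). Erg and Fli1 are on the endothelial list too. Hif1a, a subunit of the hypoxia-inducible factor, was the one called lower, by 0.30 (adjusted p = 0.00661), and Foxc1 at p14 and Klf2 at p17 had the lowest values of the list, -0.82 and -0.53, which did not pass. Epas1, which encodes HIF-2 alpha, had a log2 fold change of 0.19 (adjusted p = 0.157).

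The genes whose values were most like those of a member over the 26 mice were found by the root mean square difference of log2 levels, each gene centred on its mean, among the 19004 genes that averaged 10 normalized reads or more. For Angpt2 they were Eif4ebp1, Cnn2, Arhgdib, Fxyd5 and Ecscr, with differences of 0.37 to 0.41 beside 1.22 for Angpt2 around its own mean. For Tie1 they were Trp53i11, Pdgfrb, Mxra8, Cavin1 and Serpine2 (0.28 to 0.32, beside 0.74). All 10 were called higher at p17, by 2.04 to 2.68 on the log2 scale for the former and by 1.32 to 1.71 for the latter. The same mice served the search, so a rise at p17 was built into their choice. Tek was most like Eogt, Zfp128, Etv5, Tmem184b and A930001M01Rik (0.26 to 0.31, beside 0.42). Ptprb was most like Gpr158, Zan, Stk35, Chst3 and Gm28875 (0.35 to 0.40, beside 0.62), and none of these 5 is on the endothelial list. The nearest gene to Angpt1, Lgi3, differed from it by 0.43, beside 0.53 for Angpt1 around its own mean.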

How the data were processed

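Retinas of 27 mice were sequenced by the authors as SMARTer and Nextera XT libraries, which do not mark strand. Per the labels, reads were checked with FastQC 0.73, mapped with STAR 2.7.8a and counted with featureCounts 2.0.1. The authors then divided counts by DESeq2 1.34 size factors and deposited this signal of normalized reads. Another 8 columns of the deposited table hold the authors' group means, log2 fold changes and adjusted p-values and were not used here. Dividing by the smallest step in each library gave whole reads for 100% of values within a tolerance of 0.01, and these served the count tests. No library was a copy of another in its group: over genes of 20 or more reads, the smallest ratio of chi-square to degrees of freedom within a group was 9.39. Reads were not collapsed by molecule, so precision rests on the spread between mice.

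Genes that averaged 1 normalized read or more entered limma 3.58.1 (lmFit, eBayes with trend) in R 4.3.3 on log2 values with a pseudocount of 1, which understates the change of low genes. An adjusted p under 0.05 was called. Since reads were deposited in normalized form, limma replaced the count test of the study. Exact permutation tests, levels and figures used Python 3.11.15, numpy 2.4.6, scipy 1.17.1 and matplotlib 3.10.9. Alternatives used a pseudocount of 0.1, no filter, a mean of at least 10, mouse S4 included, the compared groups only, the mouse number as a block, 2 other scalings, edgeR 4.0.16, DESeq2 1.42.0, a Cryaa covariate and leaving out each mouse. Members, lists and motifs were chosen with earlier results of these data known. Named genes are the 5 members and up to 4 genes per pathway list and age with the smallest adjusted p among those passing. The ends of list ranges and the 5 genes most like each member (for Angpt1 only the nearest) were named too. Foxo1, Epas1, Hif1a, Adam17, Calb1, Vtn, the platelet and hemoglobin genes and Mcph1 were named for their roles or position after their values were seen. Of the listed genes, 2 were not tested because of low levels, and 3 are on 2 lists.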

Additional observations from a re-analysis of the deposited data

Results flagged for a closer look

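The OIR effect differed between p14 and p17 for 2 of the 5 genes by limma's test of the difference itself, more positive at p17 in both, where 1.43% of all genes tested were. For Angpt2 the later effect exceeded the earlier one by 2.01 in log2 units (standard error 0.22, limma adjusted p = 1.69e-06), after 0.88 at p14 in a group where all 6 OIR mice lay above the controls. For Tie1 it was more positive by 2.07 (standard error 0.20, adjusted p = 1.19e-07), and the estimate itself changed sign, from -0.46 at p14, which did not pass, to 1.62 at p17.

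Of 20 sets of values, 5 genes in each of 4 groups of the same mice, 1 held a value far from the others, and chance gives about 1 in 20. Angpt2 in nOIR p17 mouse S2 stood at 334.4 normalized reads, while the other 5 nOIR p17 mice lay between 178.1 and 226.3. Without this mouse Angpt2 still passed the test at p17 (limma adjusted p = 2.51e-14).

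The nOIR p14 mouse S4, which was left out of the main comparisons, had more Tek and Ptprb reads than any other nOIR p14 mouse. Tek stood at 714.9 normalized reads, where the other 6 reached 475.9 at most, and Ptprb at 1920, where they reached 1309. Its Tie1 (505.7) and Angpt2 (271.7) lay within the range of the others.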

How the results depend on the processing

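Under 11 alternatives (10 for the difference between the ages, which cannot be fitted on the compared groups alone) and with each mouse left out, Angpt2 at both ages, Tie1 at p17, Ptprb at p14 and the differences of Angpt2 and Tie1 kept their direction and their side of the threshold. Tie1 at p14 passed among genes averaging 10 normalized reads or more (log2 fold change -0.46), with mouse S4 included (-0.45), with the replicate block (-0.52), after quantile normalization (-0.46) and with the Cryaa covariate (-0.52), and ranged from -0.60 to -0.32 with 1 mouse left out. In nOIR mice between the ages, Tie1 passed in the fit on the compared groups (-0.44). There Tek, near 0, changed sign with S4 included (-0.12), with the replicate block (-0.065) and after rescaling to the same total (-0.040), and ranged from -0.092 to 0.16 with 1 mouse left out, Angpt1 from -0.020 to 0.31. Under another alternative, the Tie1 to Tek ratio at p14 reached 0.15. With 1 mouse left out, it ranged from -0.094 to 0.11. The Ptprb to Tek ratio then ranged from -0.55 to -0.29 at p14 and from -0.62 to -0.41 at p17. Tie1 relative to endothelial genes ranged from 0.17 to 0.28 at p17 with 1 mouse left out. With S4 included, the Ptprb to Tek ratio at p14 was -0.47 and passed. It also passed in 1 of 12 tests with 1 mouse left out (exact permutation test, p = 0.0195). The cause of these changes was not tested. Over all genes, the OIR effect was called more positive at p17 than at p14 for 389 and more negative for 40, for 255 and 14 with the replicate block and 597 and 93 by DESeq2, and more negative for 24 to 57 with 1 mouse left out. Mouse numbers pair nothing in the labels, and mice of the same number in different groups did not deviate together (median correlation 0.01 over 34 pairs, against -0.003 over 218 other pairs), so the block shows only a shared number. Angpt1 had few reads, with a median of 39.7 to 56.8 normalized reads per group.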

Other observations

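Müller glia markers were called lower in OIR mice in 4 of 6 cases at p14 and in 5 of 6 at p17, and amacrine cell markers in 3 of 6 cases at both ages. Of 4 horizontal cell markers, Calb1 was called lower at both ages, by 0.51 on the log2 scale at p14 and by 0.76 at p17, and the other 3 did not pass at either age. Whether these cells had a part in the levels of the 5 genes was not tested.

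The spread of Tie1 between mice differed by group. Its SD was 4.44% of the mean in nOIR p14, 8.66% in nOIR p17 and 5.34% in OIR p17 mice, and 35.0% in OIR p14 mice. In the same 6 OIR p14 mice the SD of Ptprb was 43.0% and that of Angpt2 19.7% of the mean. No test of these spreads was run.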
